A study of Mus musculus with 12 samples.

Results

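The liver makes most of the complement and clotting proteins of the plasma, and 36 genes for such proteins were followed here by name, from the mannose-binding lectins to the fibrinogen chains and the inhibitors of thrombin. The genes were listed by what they encode, with earlier results of these data known. Of the 36, 34 had a probe set that carried 1 gene symbol, and all 34 were among the 14568 genes tested. C3 and Cpb2 were not analysed here. Where a gene had several probe sets, the brightest over the 12 arrays stood for it, so signal entered that choice.

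Livers were compared between Ire1α null mice (sample titles Fe-CRE+) and control mice (Fe+CRE+), each with tunicamycin or with the vehicle, on Affymetrix arrays. All were C57Bl/6J mice, 3 months old, and both genotypes carry the CRE+ label. Neither the promoter that drives Cre nor the deleted part of Ern1, the gene for Ire1α, is stated in the labels. The injection into the peritoneum held 2 µg of tunicamycin per g of body weight or 150 µM dextrose, and livers were taken 8 hours later. The 4 groups were null tunicamycin, null vehicle, control tunicamycin and control vehicle livers, with 3 arrays each, labelled as biological replicates. The p-values therefore measure the spread between these samples, and 3 arrays a group limit the precision of every value.

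Hepatocytes release these proteins through the endoplasmic reticulum (ER) and the Golgi, and most of them receive N-linked sugars and disulfide bonds on the way. Complement starts with recognition molecules and proteases, goes on through convertases that cleave C3 and C5, and ends in a pore of terminal components. Clotting is a chain of proteases that ends with thrombin, which cuts fibrinogen into fibrin, and several of these proteases must be carboxylated with the help of vitamin K before they leave the ER. Tunicamycin stops the first step of N-linked glycosylation, so unfolded glycoprotein builds up in the ER, and Ire1α is an ER sensor of such protein whose RNase activity processes Xbp1 mRNA.

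The values below are normalised intensities, the linear signal of a probe set after quantile normalisation across the 12 arrays. A difference is on the log2(intensity + 16) scale, tunicamycin minus vehicle or null minus control, with the standard error of the limma fit. A transcript is called when its limma p, adjusted over all 14568 genes with the Benjamini-Hochberg method, was under 0.05, and the verbs rose and fell are used only for called transcripts. In liver tissue as a whole, fewer cells of a type and less RNA per cell cannot be told apart. The trimmed mean of the deposited intensity lay between 228 and 303 over the arrays. The markers of hepatocytes Alb and Ttr, which encode albumin and transthyretin, were bright on every array, at log2 values between 13.58 and 13.93. Ern1 is read by 5 probe sets. The brightest rose with tunicamycin in null livers by 1.27 ± 0.24 (adjusted p = 0.004288, and 0.0009673 without null tunicamycin replicate 2) and in control livers by 1.03 ± 0.24 (adjusted p = 0.008429). The other Ern1 probe sets had differences from -0.80 to 0.11 in null and from -0.66 to 0.20 in control livers. None of these was called, and only the dimmest probe set had positive values. No Ern1 probe set was called between genotypes. Values of probe sets other than the brightest of a gene come from a fit of all probe sets with 1 gene symbol, and their p was adjusted over those. With the deleted part unknown, these probe sets check the genotype labels only weakly.

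Null tunicamycin replicate 2 stood apart because it carried transcripts of kidney. On it 15 of 20 kidney markers lay more than 1 log2 unit above the highest of the other 11 arrays. Umod, which encodes the urinary protein uromodulin, was at 13.14 against at most 6.55, and Kap, an androgen-regulated kidney protein gene, was at 12.84 against at most 5.98. Calls and differences of the 34 transcripts in null livers are therefore also given without that array.

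Tunicamycin lowered a large share of the 34 transcripts in both genotypes and raised none. In null livers 14 of 34 fell, against 9.23% of all genes tested, and 0 rose, against 7.59%. In control livers 14 of 34 fell, against 13.3% of all genes, and 0 rose, against 11.6%. The median difference of the 34 was -0.472 in null livers, beside -0.066 for all genes, and -0.408 in control livers, beside -0.106 for all genes. Without null tunicamycin replicate 2, 9 of 34 fell in null livers, against 7.93% of all genes, and the median was -0.338 beside -0.090. In the same fit 16 of 34 fell in control livers, against 15.3% of all genes, with F9 and F11 gained. The 3 tunicamycin arrays lay below all 3 vehicle arrays for 21 transcripts in null livers, where this held for 19.4% of all genes, and for 22 in control livers, where it held for 24.5%. The null count was again 21 in the fit without null tunicamycin replicate 2, with 28.9% of all genes.

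Most calls were shared between the genotypes. Those that fell in both were C8g, F10, F13b, F7, Hc, Hrg, Klkb1, Masp2, Mbl1, Pros1, Proz and Serpind1, 12 of the 14 called in each. By the brightest probe set of each gene, F9 and F11 were called in null livers alone, and C2 and Cfb in control livers alone. No transcript was called for a difference in response between genotypes, so these 4 cannot be said to respond in 1 genotype only. The remaining 18 transcripts were called in neither. Without null tunicamycin replicate 2, 9 transcripts fell in both genotypes, and F9 was then among them.

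**Figure D1:**
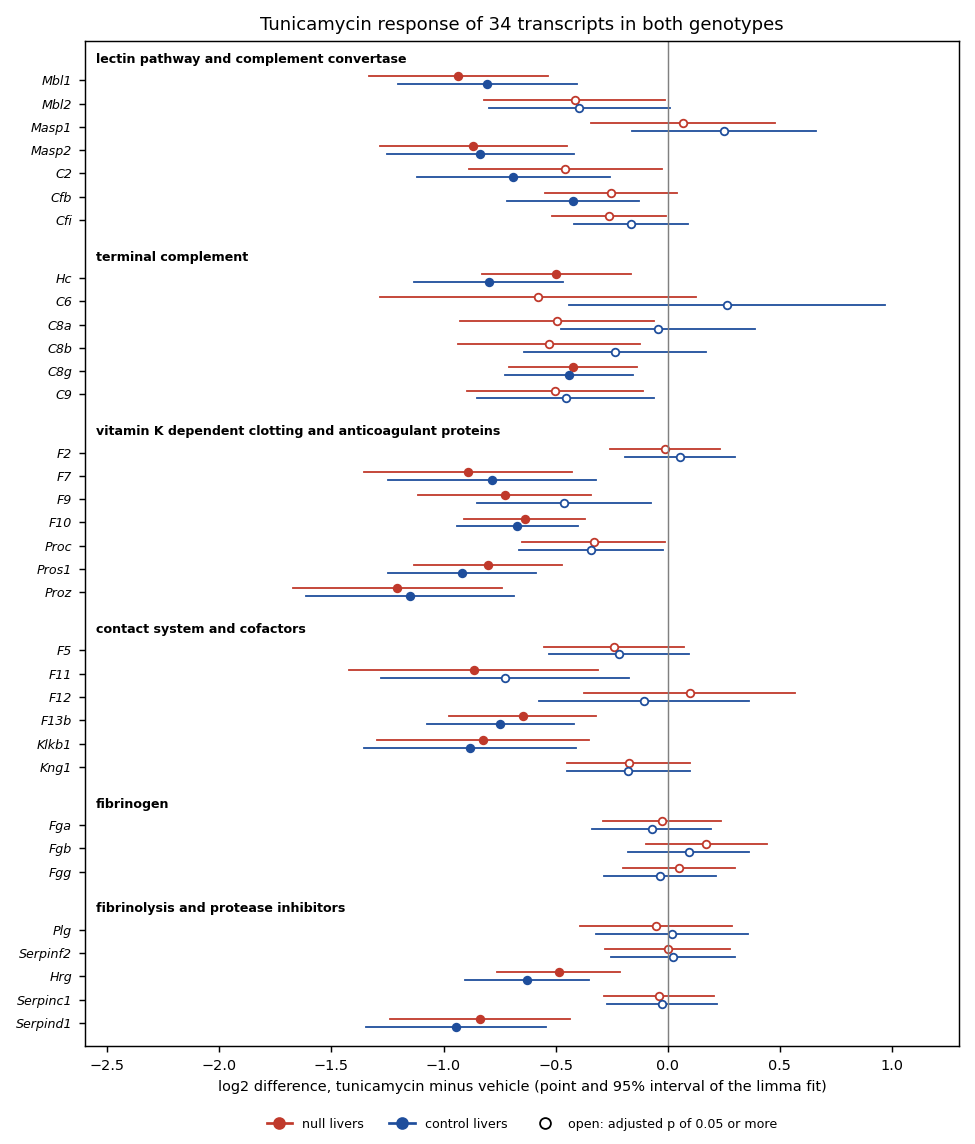
Log2 difference between tunicamycin and vehicle livers (horizontal axis) for the 34 transcripts, grouped by role, in null livers (red, upper point) and control livers (blue, lower point), with 95% intervals of the limma fit and open points for transcripts that were not called. Filled points lie at or below -0.42 in both genotypes, and the fibrinogen chains lie between -0.07 and 0.17.

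The number of calls depended on how the arrays were scaled and on single arrays. With array medians centred in place of quantile normalisation, 5 transcripts fell in null livers and 8 in control livers. Over all 14568 genes 703 and 1181 then fell, against 1344 and 1943 with quantile normalisation. With the values as deposited, 2 of 34 fell in null livers, against 512 of 14568 genes, and 7 of 34 in control livers, against 1068. The median of all genes moved with that choice, from -0.066 with quantile normalisation to 0.084 as deposited in null livers, and from -0.106 to 0.009 in control livers. Set against all genes, the median of the 34 was lower by 0.406 with quantile normalisation and by 0.379 as deposited in null livers, and by 0.301 and 0.236 in control livers. Leaving out null vehicle replicate 1 or null vehicle replicate 3 left 8 called in null livers, with 803 or 869 lower over all genes. Leaving out control tunicamycin replicate 2 left 9 in control livers, with 1298 lower over all genes. The calls of Mbl1 and Proz in null livers, and of F10, Hc, Pros1, Proz and Serpind1 in control livers, held under all 26 alternatives tried. With centred medians the null calls of C8g, F11, F13b, F7, F9, Hc, Hrg, Klkb1 and Pros1 were lost. The control calls of C2, C8g, Cfb, F7, Masp2 and Mbl1 were then also lost. As deposited, those of F10, Masp2 and Serpind1 were lost as well in null livers, and that of Klkb1 in control livers. For single transcripts of the 34, only losses on leaving out an array are given below.

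The ratio of 5' to 3' signal of the actin control probe sets, which falls as RNA degrades, was lower with tunicamycin in control livers and overlapped between treatments in null livers. It lay between 0.205 and 0.434 on the null tunicamycin arrays, against 0.296 to 0.633 on the null vehicle arrays. It lay between 0.295 and 0.389 on the control tunicamycin arrays, against 0.454 to 1.1 on the control vehicle arrays, with no overlap. The same ratio of the Gapdh control probe sets overlapped between treatments in both genotypes. It was 0.37 to 0.435 on null tunicamycin against 0.181 to 0.642 on null vehicle arrays. On control tunicamycin arrays it was 0.523 to 0.577, against 0.352 to 0.774 on control vehicle arrays. Fits that take such a ratio into account were chosen after seeing the data. With the actin ratio, 10 transcripts fell in null livers and 8 in control livers, with medians of -0.450 and -0.465. The null calls of C8g, Hc, Hrg and Klkb1 were lost. In control livers C2, C8g, Cfb, F13b, Hrg, Klkb1 and Masp2 lost theirs, and F11 was gained. Calls over all genes were also fewer, with 846 lower in null livers, against 1344 without the covariate, and 855 lower in control livers, against 1943. With the Gapdh ratio, 12 fell in null livers and 14 in control livers, with medians of -0.429 and -0.414. Over all genes 1187 were then lower in null livers and 1984 in control livers. The part of RNA quality in single calls was not tested.

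The promoters of 5 genes are shown first, since they share the sequence GTTAAT, which resembles a part of the site bound by the liver factor HNF1, and yet differ in their response. Proz, Hc and F13b fell with tunicamycin in both genotypes, and Fga and Fgb were called in neither. Each is the 250 bases before the start that RefSeq gives, on build GRCm38.p6, read 5′ to 3′ on the strand of the gene, with GTTAAT or its reverse complement ATTAAC and the sequence CCACG in capitals. For Proz, Hc and F13b the start used lies inside the annotated gene, so other starts of these genes were not read.
Proz: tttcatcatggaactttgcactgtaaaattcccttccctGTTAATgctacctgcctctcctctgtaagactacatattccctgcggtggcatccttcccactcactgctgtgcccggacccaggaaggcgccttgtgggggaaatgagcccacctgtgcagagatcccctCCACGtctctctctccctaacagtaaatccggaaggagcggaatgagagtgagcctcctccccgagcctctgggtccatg
Hc: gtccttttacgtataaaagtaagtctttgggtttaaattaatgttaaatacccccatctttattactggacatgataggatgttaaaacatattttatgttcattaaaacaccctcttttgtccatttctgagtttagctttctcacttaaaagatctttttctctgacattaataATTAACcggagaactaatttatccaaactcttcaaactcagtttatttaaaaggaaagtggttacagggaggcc
F13b: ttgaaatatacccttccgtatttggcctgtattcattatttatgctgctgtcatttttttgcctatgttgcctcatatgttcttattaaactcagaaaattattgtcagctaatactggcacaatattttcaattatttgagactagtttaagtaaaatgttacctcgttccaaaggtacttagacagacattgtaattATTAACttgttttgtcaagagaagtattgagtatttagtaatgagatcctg
Fga: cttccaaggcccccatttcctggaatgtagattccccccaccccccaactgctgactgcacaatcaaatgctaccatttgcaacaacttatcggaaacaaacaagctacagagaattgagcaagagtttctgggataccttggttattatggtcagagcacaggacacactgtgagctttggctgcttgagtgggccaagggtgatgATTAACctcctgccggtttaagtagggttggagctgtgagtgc
Fgb: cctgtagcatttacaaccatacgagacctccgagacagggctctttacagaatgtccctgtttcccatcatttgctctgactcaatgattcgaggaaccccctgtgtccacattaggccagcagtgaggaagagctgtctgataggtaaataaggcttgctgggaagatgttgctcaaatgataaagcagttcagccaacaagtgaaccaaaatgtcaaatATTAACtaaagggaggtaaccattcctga

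The windows are chr8:13060658-13060907 on the plus strand for Proz, chr2:35061413-35061662 on the minus strand for Hc and chr1:139501457-139501706 on the plus strand for F13b. Those of the fibrinogen genes are chr3:83025903-83026152 on the plus strand for Fga and chr3:83049864-83050113 on the minus strand for Fgb. Of the 34 genes, 27 were matched to a promoter. GTTAAT on either strand was found in 7 of the 27, or 25.9%, against 6.43% of 32851 promoters of all genes, and the other genes that held it were C8a and C8b. It stood in 3 of the 14 promoters whose transcripts fell in at least 1 genotype and in 4 of the 13 others. Core sequences of stress-response sites were also searched on both strands. CCACG, the end of the ER stress response element, was found in 4 of 27 promoters, or 14.8%, against 28.3% of all promoters, and those were Masp2, Proz, Klkb1 and Serpinf2. ACGTG, a core bound by Xbp1 and related factors, was found in 5 of 27, or 18.5%, against 16.6%. These were Masp2, C8g, F10, Proz and Serpind1. The Masp2 window (chr4:148602294-148602543, plus strand) lies inside the gene, which is annotated from 148594622. For C8a, too, the start used lies inside the annotated gene. With both strands searched, ACGTG and CCACG overlap where the bases CCACGT occur, and the matches in Masp2 and Proz overlapped in this way. C8g alone had 2 windows, and ACGTG was in the one inside the gene (chr2:25500507-25500756) and not in the one at its annotated start (chr2:25501720-25501969). A gene was counted if any of its windows held the sequence, while the share of all promoters counts single windows. CCAAT was found in 7 of 27, or 25.9%, against 33.8% of all promoters. The full element, CCAAT followed by 9 bases of any kind and CCACG, was in 0 of the 27 and in 0.113% of all promoters. A match describes the letters in these windows and names no bound factor.

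Among the lectin pathway and convertase transcripts, Mbl1, Masp2, C2 and Cfb fell in control livers, 4 of 7 tested, and Mbl1 and Masp2 fell in null livers, 2 of 7. The group median was -0.415 in null livers, which was -0.265 without null tunicamycin replicate 2, and -0.422 in control livers. Mbl1 encodes mannose-binding lectin A, which binds sugars on microbes. Its normalised intensity was 2712, 1708 and 2730 in null tunicamycin livers, against 4900, 4023 and 4515 in null vehicle livers. It was 2319, 2391 and 2826 in control tunicamycin livers, against 4509, 4426 and 4210 in control vehicle livers. All tunicamycin arrays lay below all vehicle arrays of the same genotype. Mbl1 fell by 0.93 ± 0.18 in null livers (adjusted p = 0.00471, and 0.00826 without null tunicamycin replicate 2) and by 0.80 ± 0.18 in control livers (adjusted p = 0.00681).

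Masp2 encodes the protease that the lectins activate and that cleaves C4 and C2. It read 1491, 1094 and 1821 in null tunicamycin livers, against 2951, 2404 and 2585 in null vehicle livers. It read 1155, 1197 and 1278 in control tunicamycin livers, against 1795, 2533 and 2247 in control vehicle livers. The groups did not overlap in either genotype, and Masp2 fell by 0.87 ± 0.19 in null livers (adjusted p = 0.00919, and 0.026 without null tunicamycin replicate 2) and by 0.84 ± 0.19 in control livers (adjusted p = 0.00715).

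C2 encodes the protease part of the convertase that Masp2 helps to build. It read 1181, 1053 and 1053 in null tunicamycin livers, against 1916, 1165 and 1531 in null vehicle livers, and the groups overlapped. It read 880, 799 and 1033 in control tunicamycin livers, against 1397, 1804 and 1235 in control vehicle livers, with no overlap. C2 fell by 0.69 ± 0.20 in control livers (adjusted p = 0.0234), and its difference in null livers was -0.46 ± 0.20 (adjusted p = 0.142, and 0.2323 without null tunicamycin replicate 2). The control call was lost without control tunicamycin replicate 1 (adjusted p = 0.0662), control tunicamycin replicate 2 (adjusted p = 0.0927) or control vehicle replicate 2 (adjusted p = 0.0938).

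Cfb, factor B of the alternative pathway, averaged 3030 ± 65.4 in null tunicamycin and 3640 ± 480 in null vehicle livers, and 3030 ± 156 in control tunicamycin and 4080 ± 354 in control vehicle livers (SD, n = 3 each). It fell by 0.42 ± 0.13 in control livers (adjusted p = 0.0382), where leaving out any of 8 of the 12 arrays ended the call, with adjusted p up to 0.112. Cfi, the protease that inactivates C3b, had differences of -0.26 in null and -0.16 in control livers and was called in neither. Its null difference was -0.20 without null tunicamycin replicate 2, and that of Cfb was -0.23. Mbl2, a further mannose-binding lectin, had differences of -0.41 and -0.39, and Masp1, which activates Masp2, had differences of 0.07 and 0.25, also without a call. The null differences were -0.26 for Mbl2 and 0.21 for Masp1 in the fit without null tunicamycin replicate 2. The 5 Masp1 probe sets did not share a sign.

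Of the terminal components, Hc and C8g fell in both genotypes, 2 of 6 tested. Hc encodes complement C5, whose cleavage starts the assembly of the pore. It read 5340, 3834 and 5566 in null tunicamycin livers, against 6593, 6736 and 7226 in null vehicle livers. It read 3931, 3874 and 4457 in control tunicamycin livers, against 6900, 7304 and 7115 in control vehicle livers. The groups did not overlap in either genotype. Hc fell by 0.80 ± 0.15 in control livers (adjusted p = 0.00239). It fell by 0.50 ± 0.15 in null livers (adjusted p = 0.0445), a call that ended when any array other than null tunicamycin replicate 3 was left out (adjusted p = 0.13 without null tunicamycin replicate 2).

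C8g encodes the small chain of C8, which is not needed for pore formation and belongs to the lipocalins. It read 5406, 4843 and 5913 in null tunicamycin livers, against 7183, 7233 and 7175 in null vehicle livers. It read 5496, 5130 and 6433 in control tunicamycin livers, against 7487, 7703 and 7912 in control vehicle livers. No tunicamycin array reached its vehicle arrays. C8g fell by 0.42 ± 0.13 in null livers (adjusted p = 0.0462, and 0.126 without null tunicamycin replicate 2) and by 0.44 ± 0.13 in control livers (adjusted p = 0.0272). The null call was lost without any of 10 further arrays, null tunicamycin replicates 1 (adjusted p = 0.0936) and 3 (adjusted p = 0.0552) among them. The control call was lost without control tunicamycin replicate 1 (adjusted p = 0.0807) or 2 (adjusted p = 0.112), or control vehicle replicate 2 (adjusted p = 0.066) or 3 (adjusted p = 0.0805).

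The other pore components were called in neither genotype. C9, which polymerises into the ring of the pore, averaged 5090 ± 680 in null tunicamycin and 7220 ± 912 in null vehicle livers, and 5100 ± 1010 in control tunicamycin and 6940 ± 832 in control vehicle livers (SD, n = 3 each). Its differences were -0.50 in null livers (adjusted p = 0.0803) and -0.46 in control livers (adjusted p = 0.0877), and its arrays did not overlap in either. C8a and C8b, the chains of C8 that insert into the pore, had differences of -0.49 and -0.53 in null livers and -0.04 and -0.23 in control livers. C6 had a difference of -0.58 in null and 0.26 in control livers, with overlapping arrays in both. The null difference of C8a was -0.26, and those of C8b, C9 and C6 were -0.48, -0.40 and -0.60 in the fit without null tunicamycin replicate 2.

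The vitamin K dependent proteins had the lowest group median of the 6 role groups in both genotypes. In null livers F7, F9, F10, Pros1 and Proz fell, 5 of 7, with a group median of -0.728, and the same 5 fell without null tunicamycin replicate 2, with a median of -0.568. In control livers F7, F10, Pros1 and Proz fell, 4 of 7, with a group median of -0.671. Proz encodes protein Z, a cofactor for the inhibition of activated factor X. It read 3044, 1609 and 2570 in null tunicamycin livers, against 6030, 4955 and 5231 in null vehicle livers. It read 2304, 1834 and 1921 in control tunicamycin livers, against 4465, 5034 and 3995 in control vehicle livers. Both sets of tunicamycin arrays lay far below their vehicle arrays, at 43.4% of the vehicle level in null and 45.1% in control livers by the fitted difference. Proz fell by 1.21 ± 0.21 in null livers (adjusted p = 0.00252, and 0.00366 without null tunicamycin replicate 2) and by 1.15 ± 0.21 in control livers (adjusted p = 0.00195).

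Pros1 encodes protein S, the cofactor of activated protein C. It read 551, 409 and 559 in null tunicamycin livers, against 887, 850 and 923 in null vehicle livers. It read 506, 502 and 431 in control tunicamycin livers, against 867, 1040 and 858 in control vehicle livers. The groups were well apart, and Pros1 had the smallest adjusted p of the 34 in control livers, where it fell by 0.92 ± 0.15 (adjusted p = 0.000906). In null livers it fell by 0.80 ± 0.15 (adjusted p = 0.0039, and 0.0115 without null tunicamycin replicate 2).

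F10 encodes factor X, the protease that converts prothrombin to thrombin. It read 3995, 3648 and 4401 in null tunicamycin livers, against 6219, 6284 and 6206 in null vehicle livers. It read 3862, 3871 and 4351 in control tunicamycin livers, against 6810, 6228 and 6213 in control vehicle livers. Its arrays were close to each other within a group and did not overlap between treatments. F10 fell by 0.64 ± 0.12 in null livers (adjusted p = 0.00446, and 0.0163 without null tunicamycin replicate 2) and by 0.67 ± 0.12 in control livers (adjusted p = 0.00185). Its dimmer probe sets had differences of -0.58 and -0.61 in null livers (adjusted p = 0.1111 and 0.08411). In control livers they had -0.58 and -0.70 (adjusted p = 0.08445 and 0.03417), and only the last was called.

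F7 encodes factor VII, which starts clotting when it binds tissue factor. It read 1866, 1080 and 2033 in null tunicamycin livers, against 2982, 3296 and 2700 in null vehicle livers. It read 1464, 1566 and 1920 in control tunicamycin livers, against 2774, 2806 and 2921 in control vehicle livers. The groups did not overlap, and null tunicamycin replicate 2 was the lowest of all 12 arrays. F7 fell by 0.89 ± 0.21 in null livers (adjusted p = 0.0141). Without that array the difference was -0.61 (adjusted p = 0.024). F7 fell by 0.78 ± 0.21 in control livers (adjusted p = 0.0181), a call lost without control tunicamycin replicate 1 (adjusted p = 0.0691), control tunicamycin replicate 2 (adjusted p = 0.0618) or control vehicle replicate 3 (adjusted p = 0.0553).

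F9 encodes factor IX, which activates factor X on platelets. It read 4177, 2534 and 3689 in null tunicamycin livers, against 5834, 5267 and 5807 in null vehicle livers. It read 3698, 3427 and 4055 in control tunicamycin livers, against 4629, 5395 and 5410 in control vehicle livers. No group overlapped its vehicle group. F9 fell by 0.73 ± 0.18 in null livers (adjusted p = 0.0154, and 0.0373 without null tunicamycin replicate 2), a call lost without null vehicle replicate 1 (adjusted p = 0.0529) or null vehicle replicate 3 (adjusted p = 0.051). In control livers its difference was -0.46 ± 0.18 (adjusted p = 0.0779).

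F2, the gene for prothrombin, shares the carboxylation step with these 5 and was called in neither genotype. It read 10790, 10253 and 10875 in null tunicamycin livers, against 10402, 11054 and 10752 in null vehicle livers. It read 10706, 11200 and 11001 in control tunicamycin livers, against 10930, 10875 and 9906 in control vehicle livers. The groups overlapped throughout, with differences of -0.01 ± 0.11 in null livers (95% interval -0.26 to 0.23) and 0.05 ± 0.11 in control livers (95% interval -0.19 to 0.30). Proc, the gene for protein C, had differences of -0.33 in null and -0.34 in control livers and was not called. The null differences were 0.01 for F2 and -0.19 for Proc in the fit without null tunicamycin replicate 2.

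**Figure D2:**
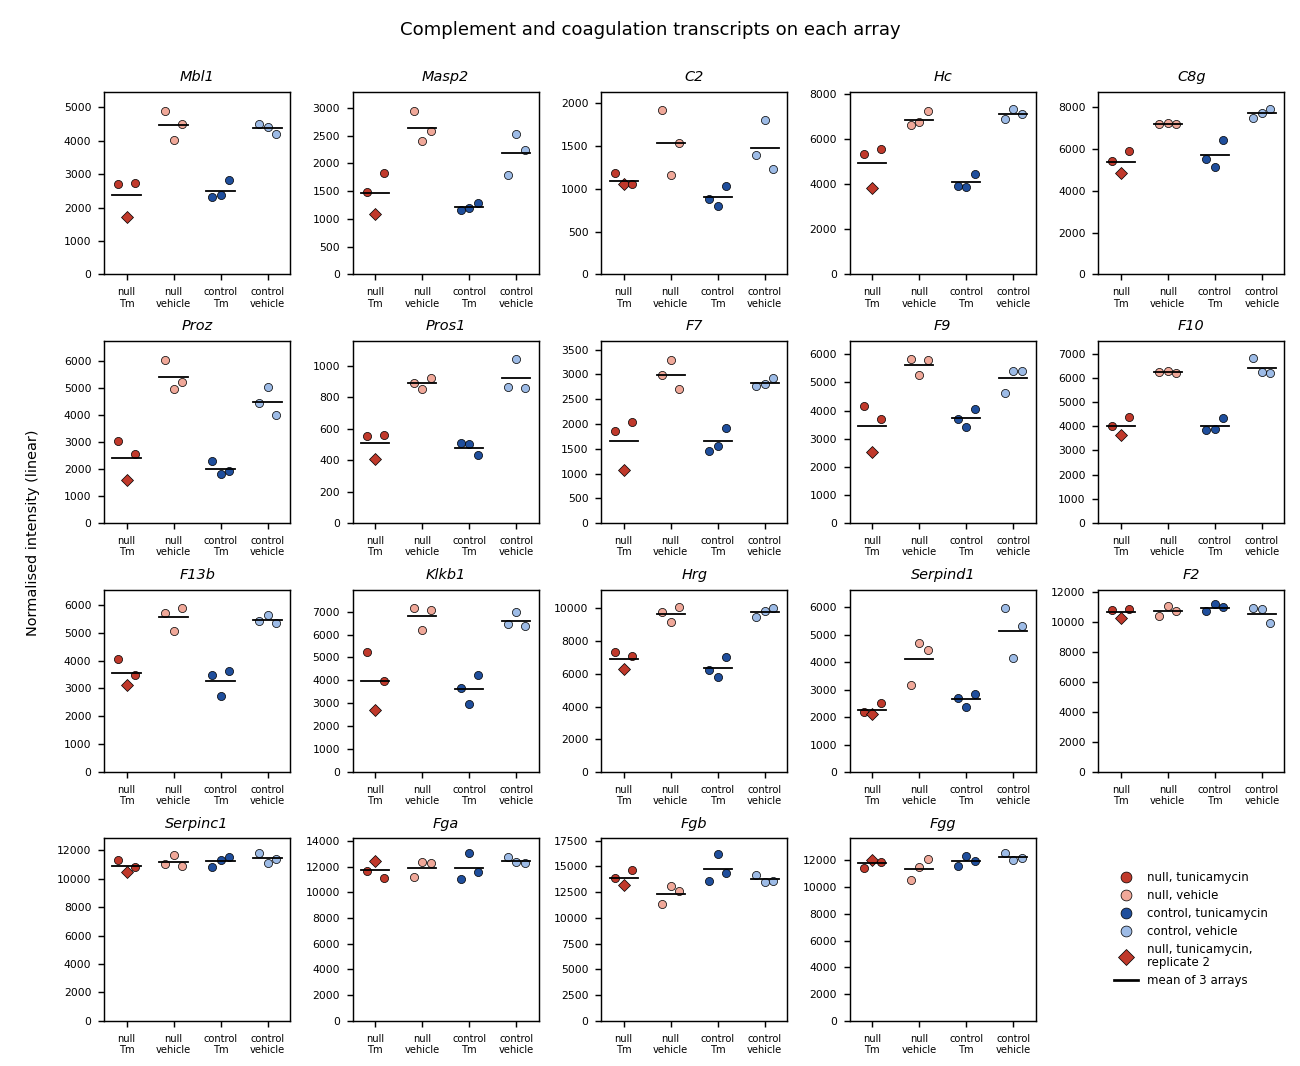
Normalised intensity (linear, vertical axis from 0) of 19 transcripts on each of the 12 arrays, for null tunicamycin, null vehicle, control tunicamycin and control vehicle livers, with bars for the mean of 3 arrays and a diamond for null tunicamycin replicate 2. Proz reads 1609 to 3044 in null tunicamycin livers and 4955 to 6030 in null vehicle livers, while F2, Serpinc1 and the fibrinogen chains overlap between treatments in all but Fgb of null livers.

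In the contact system and among the cofactors, F13b and Klkb1 fell in both genotypes and F11 fell in null livers. That made 3 of 6 in null and 2 of 6 in control livers. F13b encodes the carrier subunit of factor XIII, the enzyme that crosslinks fibrin. It read 4062, 3136 and 3471 in null tunicamycin livers, against 5714, 5059 and 5901 in null vehicle livers. It read 3485, 2719 and 3607 in control tunicamycin livers, against 5406, 5646 and 5331 in control vehicle livers. The groups did not overlap, and F13b fell by 0.65 ± 0.15 in null livers (adjusted p = 0.0123, and 0.0401 without null tunicamycin replicate 2) and by 0.75 ± 0.15 in control livers (adjusted p = 0.00332).

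Klkb1 encodes plasma prekallikrein, which is activated on surfaces and releases bradykinin. It read 5252, 2694 and 3952 in null tunicamycin livers, against 7148, 6187 and 7056 in null vehicle livers. It read 3674, 2952 and 4213 in control tunicamycin livers, against 6462, 6970 and 6381 in control vehicle livers. The null tunicamycin arrays were widely spread but stayed below their vehicle arrays. Klkb1 fell by 0.88 ± 0.22 in control livers (adjusted p = 0.0106, and 0.0526 without control tunicamycin replicate 2). It fell by 0.82 ± 0.22 in null livers (adjusted p = 0.0224). The null call ended without null tunicamycin replicate 2 (difference -0.57, adjusted p = 0.0575), null tunicamycin replicate 3 (adjusted p = 0.0539), null vehicle replicate 1 (adjusted p = 0.0728) or null vehicle replicate 3 (adjusted p = 0.07).

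F11, the gene for factor XI, averaged 760 ± 191 in null tunicamycin and 1370 ± 117 in null vehicle livers, and 941 ± 266 in control tunicamycin and 1560 ± 437 in control vehicle livers (SD, n = 3 each). Its differences were -0.87 ± 0.25 in null livers (adjusted p = 0.0368) and -0.72 ± 0.25 in control livers (adjusted p = 0.0563), so F11 was called in null livers. The null call was lost without null tunicamycin replicate 1 (adjusted p = 0.1) or 2 (adjusted p = 0.0959), or any null vehicle array (adjusted p = 0.0577 to 0.104). F5, the cofactor of factor X, had differences of -0.24 in null and -0.22 in control livers, and its dimmer probe set had 0.38 and 0.32, none of them called. F12, which starts the contact pathway, had differences of 0.10 and -0.11. Kng1, the gene for kininogen, had -0.17 and -0.18 by its brighter and -0.53 and -0.45 by its dimmer probe set, with no call. The null differences by the brighter probe sets were -0.11 for F5, 0.25 for F12 and -0.07 for Kng1 in the fit without null tunicamycin replicate 2.

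The 3 fibrinogen chains, the substrate of thrombin, were called in neither genotype. Fga read 11627, 12430 and 11098 in null tunicamycin livers, against 11168, 12345 and 12285 in null vehicle livers. It read 11054, 13046 and 11564 in control tunicamycin livers, against 12720, 12394 and 12306 in control vehicle livers. Both pairs overlapped, with differences of -0.03 ± 0.12 in null and -0.07 ± 0.12 in control livers. Fgb read 13915, 13209 and 14612 in null tunicamycin livers, against 11366, 13080 and 12629 in null vehicle livers. It read 13620, 16175 and 14402 in control tunicamycin livers, against 14208, 13523 and 13620 in control vehicle livers. In null livers all tunicamycin arrays of Fgb lay above the vehicle arrays, with a difference of 0.17 ± 0.12 (adjusted p = 0.387), and in control livers the arrays overlapped (0.09 ± 0.12). Fgg read 11401, 12013 and 11858 in null tunicamycin livers, against 10532, 11506 and 12094 in null vehicle livers. It read 11564, 12306 and 11953 in control tunicamycin livers, against 12519, 12013 and 12131 in control vehicle livers. Its differences were 0.05 ± 0.11 in null and -0.03 ± 0.11 in control livers. The null differences without null tunicamycin replicate 2 were -0.07 for Fga, 0.20 for Fgb and 0.03 for Fgg. For the 3 chains the 95% intervals reached from -0.29 to 0.44 in null and from -0.34 to 0.36 in control livers.

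Among the inhibitors and the proteins of fibrinolysis, Hrg and Serpind1 fell in both genotypes, 2 of 5 tested. Serpind1 encodes heparin cofactor II, an inhibitor of thrombin. It read 2198, 2101 and 2498 in null tunicamycin livers, against 3171, 4692 and 4454 in null vehicle livers. It read 2703, 2367 and 2856 in control tunicamycin livers, against 5953, 4163 and 5295 in control vehicle livers. The groups did not overlap, although the vehicle arrays were widely spread. Serpind1 fell by 0.84 ± 0.18 in null livers (adjusted p = 0.00896, and 0.0257 without null tunicamycin replicate 2) and by 0.94 ± 0.18 in control livers (adjusted p = 0.00267).

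Hrg encodes histidine-rich glycoprotein, a plasma protein that binds heparin and plasminogen. It read 7352, 6291 and 7084 in null tunicamycin livers, against 9757, 9164 and 10102 in null vehicle livers. It read 6213, 5781 and 7019 in control tunicamycin livers, against 9479, 9825 and 10016 in control vehicle livers. The groups were clearly apart in both genotypes. Hrg fell by 0.63 ± 0.13 in control livers (adjusted p = 0.00333) and by 0.49 ± 0.13 in null livers (adjusted p = 0.0211). The null call was lost without null tunicamycin replicate 2 (difference -0.42, adjusted p = 0.0661), null tunicamycin replicate 3 (adjusted p = 0.0519), null vehicle replicate 1 (adjusted p = 0.0582) or null vehicle replicate 3 (adjusted p = 0.0701).

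Serpinc1, the gene for antithrombin, the main plasma inhibitor of thrombin, was called in neither genotype. It read 11300, 10483 and 10840 in null tunicamycin livers, against 11001, 11627 and 10898 in null vehicle livers. It read 10840, 11300 and 11534 in control tunicamycin livers, against 11809, 11132 and 11345 in control vehicle livers. The arrays overlapped, with differences of -0.04 ± 0.11 in null livers (95% interval -0.28 to 0.20) and -0.03 ± 0.11 in control livers (95% interval -0.27 to 0.22). Plg, the gene for plasminogen, had differences of -0.05 and 0.02, and Serpinf2, the gene for the inhibitor of plasmin, had 0.00 and 0.02. The null differences were -0.01 for Serpinc1, 0.07 for Plg and 0.03 for Serpinf2 in the fit without null tunicamycin replicate 2.

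Calls were fewer among the transcripts whose probe sets gave the strongest signal. Signal also depends on how well a probe binds, so its order is not an order of transcript abundance. The 10 brightest of the 34 stood within the first 152 of 14568 genes by mean signal, and of these 10 Hrg was called, in both genotypes, and the other 9 were not. Of the other 24, 13 were called in each genotype. Across the 34 transcripts, which share the same arrays, the mean signal and the difference had a Spearman rho of 0.640 in null livers, or 0.660 without null tunicamycin replicate 2, and 0.494 in control livers, with dimmer transcripts having the lower differences. Among the 152 brightest genes of any function, 4 fell and 4 rose in null livers, and 11 fell and 6 rose in control livers. The Fgb probe set was the brightest of all on control tunicamycin replicate 2, at a deposited intensity of 16626, where the highest value of an array lay between 14691 and 18741. Without null tunicamycin replicate 2, 0 of the 10 brightest and 9 of the other 24 were called in null livers. Whether signal was compressed near the top of the scale was not tested.

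**Figure D3:**
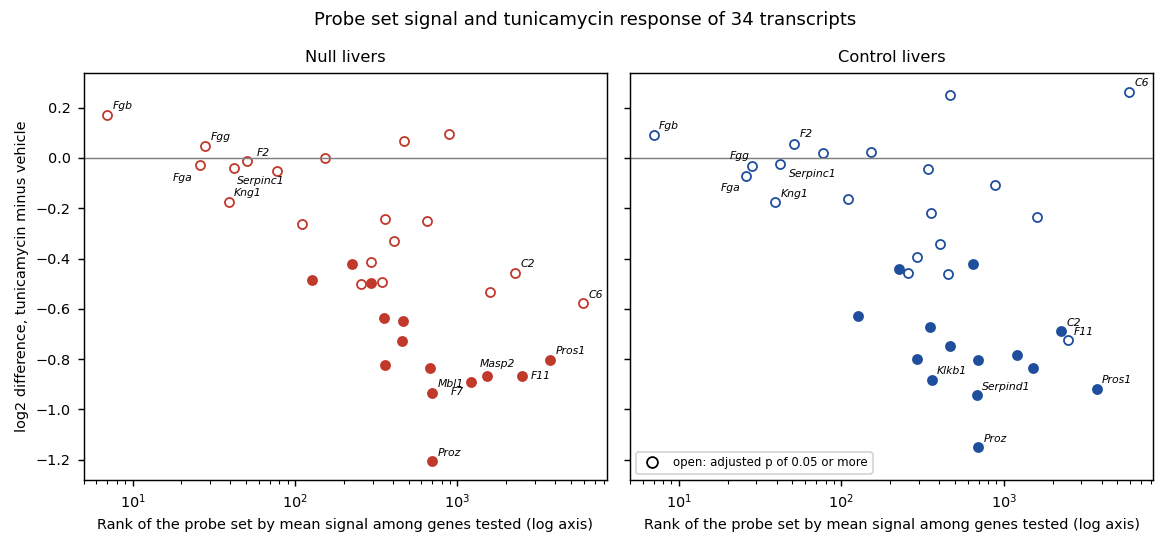
Log2 difference between tunicamycin and vehicle livers (vertical axis) against the rank of the probe set by mean signal among 14568 genes (horizontal log axis, 1 for the brightest) for 34 transcripts in null livers (left) and control livers (right), with open points for transcripts that were not called. The 10 brightest include 1 filled point, Hrg, in each panel.

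Several of the 34 genes lie side by side, and neighbours did not always share a response. On GRCm38.p6, F7 (chr8:13025506-13035809), F10 (chr8:13037308-13056676) and Proz (chr8:13060584-13076026) follow each other, and all 3 transcripts fell in both genotypes. F11 (chr8:45240659-45262055) and Klkb1 (chr8:45266688-45294835) are also neighbours, and both had differences between -0.88 and -0.72. C2 (chr17:34862602-34882100) and Cfb (chr17:34856374-34862514) lie next to each other and were both called in control livers. By the brightest probe set neither was called in null livers, where the dimmest C2 probe set was. Fgg, Fga and Fgb lie together on chromosome 3 between 83007724 and 83049863, and none was called. Hrg (chr16:22951072-22961659) and Kng1 (chr16:23058220-23082078) are near each other, and only Hrg was called.

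Genotype itself was not found to move these transcripts. With tunicamycin, 0 of 34 were called between null and control livers, against 3.99% of all genes, and 0 had an unadjusted limma p under 0.05, against 15.6% of all genes. The differences ran from -0.63 for C6 to 0.28 for C2, with a median of -0.021 beside 0.019 for all genes, and the smallest adjusted p was 0.393. Without null tunicamycin replicate 2, 0 were called and 3 had an unadjusted p under 0.05, against 3.63% and 15.7% of all genes, with a median of 0.069. Hc then had the smallest adjusted p, at 0.1357, with a difference of 0.42. With the vehicle, 0 of 34 were called, against 0% of all genes, and 0 had an unadjusted p under 0.05, against 4.1% of all genes. The vehicle differences ran from -0.33 for Serpind1 to 0.28 for Masp2.

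The response to tunicamycin was also not found to differ between genotypes for any of the 34. In the interaction, 0 were called, against 0.837% of all genes, and 0 had an unadjusted p under 0.05, against 8.26% of all genes. C6 had the largest value, -0.84 ± 0.46 (adjusted p = 0.715), with overlapping arrays. Without null tunicamycin replicate 2, 0 were called, against 0.886% of all genes, and Hc alone, against 8.73%, had an unadjusted p under 0.05, with 0.47 and an adjusted p of 0.4337. A missed threshold does not show that the genotypes respond alike. The 95% interval of a difference reached 0.336 to either side in the median, from 0.244 to 0.705, and that of an interaction 0.475, from 0.345 to 0.997.

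Of the 10 markers of Kupffer cells and macrophages, 0 were called between null and control livers, against 3.99% of all genes with tunicamycin and 0% with the vehicle. All 10 had differences below 0, as 6882 of 14568 genes had with tunicamycin and 7333 with the vehicle, and their medians were -0.623 with tunicamycin, or -0.502 without null tunicamycin replicate 2, and -0.494 with the vehicle. Between tunicamycin and vehicle their median was -0.516 in null livers, or -0.542 without that array, where 2 of 10 fell. It was -0.497 in control livers, where 1 fell. The shares of all genes that fell were 9.23% in null livers, or 7.93% without that array, and 13.3% in control livers. The 8 hepatocyte markers had medians of 0.007 in null and -0.054 in control livers and 0 calls. All but Ass1 were bright, at log2 values of 12.48 or more on every array, and whether such signals were compressed was not tested. The part of these cells in the values of the 34 transcripts was not tested.

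The array with kidney transcripts was low for most of the 34. Null tunicamycin replicate 2 lay below both other null tunicamycin arrays for 29 of 34, against 38.4% of all genes. Its difference from the mean of those arrays had a median of -0.308, from -0.842 for F7 to 0.130 for Fga, beside 0.012 for all genes. The hepatocyte markers had a median of 0.005, with 4 of 8 below both other arrays. Leaving the array out brought F7, Mbl1 and Proz closer to 0 by 0.22 to 0.28 and kept their calls, and C8g, F11, Hc, Hrg and Klkb1 lost theirs.

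**Figure D4:**
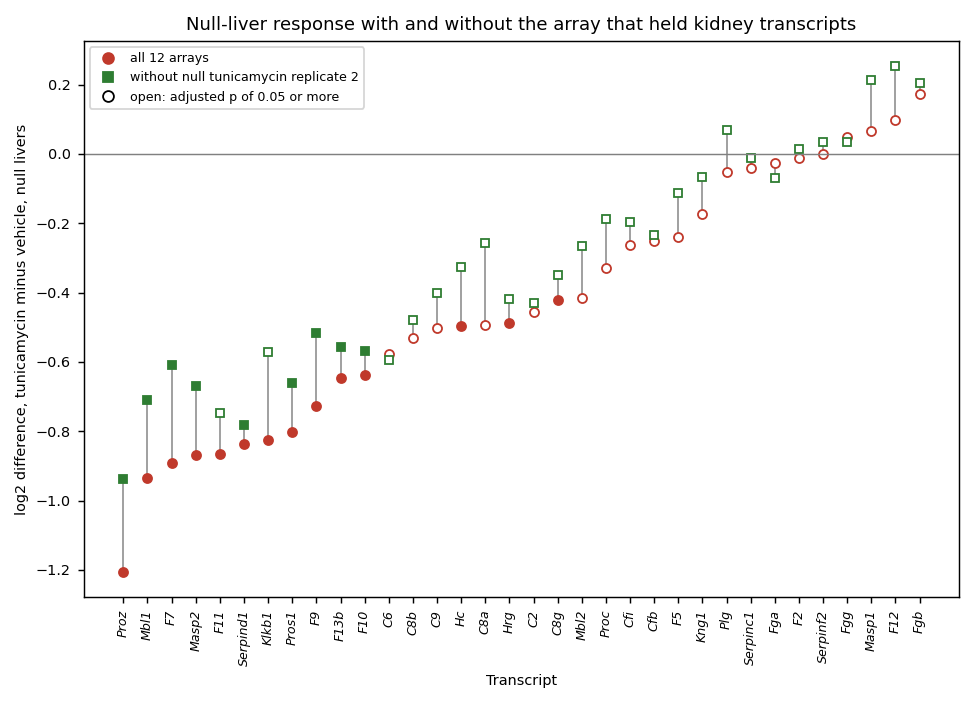
Log2 difference between tunicamycin and vehicle in null livers (vertical axis) for the 34 transcripts in order of that difference, with all 12 arrays (red circles) and without null tunicamycin replicate 2 (green squares), open where not called. Of 14 filled circles 9 keep a filled square, and the square lies above the circle for most transcripts.

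Genes of the vitamin K cycle and of the export receptor for clotting factors, outside the 34, were also tested. Of 5 such genes, 2 rose in control livers, Mcfd2 and Lman1, which encode the paired receptor that carries factors V and VIII out of the ER. In null livers Mcfd2 rose and Ggcx, the gene for the carboxylase that the vitamin K dependent proteins need, fell. Of all genes tested, 11.6% rose in control livers, and 7.59% rose and 9.23% fell in null livers. Between null and control livers with tunicamycin 3 of 5 were lower, Ggcx, Lman1 and Vkorc1, which encodes the reductase that recycles vitamin K. Without null tunicamycin replicate 2, 2 of 5 were lower, Ggcx and Lman1. Among all 14568 genes 471 were lower, and 407 without that array. Lman1 read 3714, 3218 and 3180 in null tunicamycin livers, against 3418, 2940 and 2995 in null vehicle livers. It read 5610, 5728 and 5446 in control tunicamycin livers, against 3099, 3325 and 3222 in control vehicle livers. The control tunicamycin arrays stood above all other 9 arrays. Lman1 rose by 0.80 ± 0.12 in control livers (adjusted p = 0.0005594), had a difference of 0.11 ± 0.12 in null livers (adjusted p = 0.593, and 0.5432 without null tunicamycin replicate 2), and was lower in null than in control livers with tunicamycin, with a difference of -0.73 ± 0.12 (adjusted p = 0.004955, and 0.01828 without null tunicamycin replicate 2). Its interaction, -0.68 ± 0.17, was not called (adjusted p = 0.1256).

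Ggcx read 246, 267 and 253 in null tunicamycin livers, against 378, 513 and 645 in null vehicle livers. It read 448, 651 and 502 in control tunicamycin livers, against 839, 533 and 693 in control vehicle livers. Its null tunicamycin arrays were the lowest of the 12. Ggcx was lower in null than in control livers with tunicamycin, with a difference of -1.0035 ± 0.22 (adjusted p = 0.02326, and 0.0424 without null tunicamycin replicate 2), and fell with tunicamycin in null livers by 0.93 ± 0.22 (adjusted p = 0.01265, and 0.02294 without that array). That fall was not called with centred medians (adjusted p = 0.0555) or values as deposited (adjusted p = 0.086). Vkorc1 read 4942, 4290 and 4436 in null tunicamycin livers, against 6531, 7019 and 6744 in control tunicamycin livers, a difference of -0.57 ± 0.12 (adjusted p = 0.02201, and 0.0635 without null tunicamycin replicate 2). With the vehicle it read 5247, 5197 and 5439 in null livers, against 6849, 5733 and 6400 in control livers. Those arrays did not overlap either, and the vehicle difference, -0.25, was not called (adjusted p = 0.988). Mcfd2 rose by 0.87 ± 0.12 in null livers (adjusted p = 0.0005968, and 0.002264 without that array) and by 1.05 ± 0.12 in control livers (adjusted p = 6.888e-05). No gene of these 5 was called with the vehicle between genotypes or in the interaction.

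**Figure D5:**
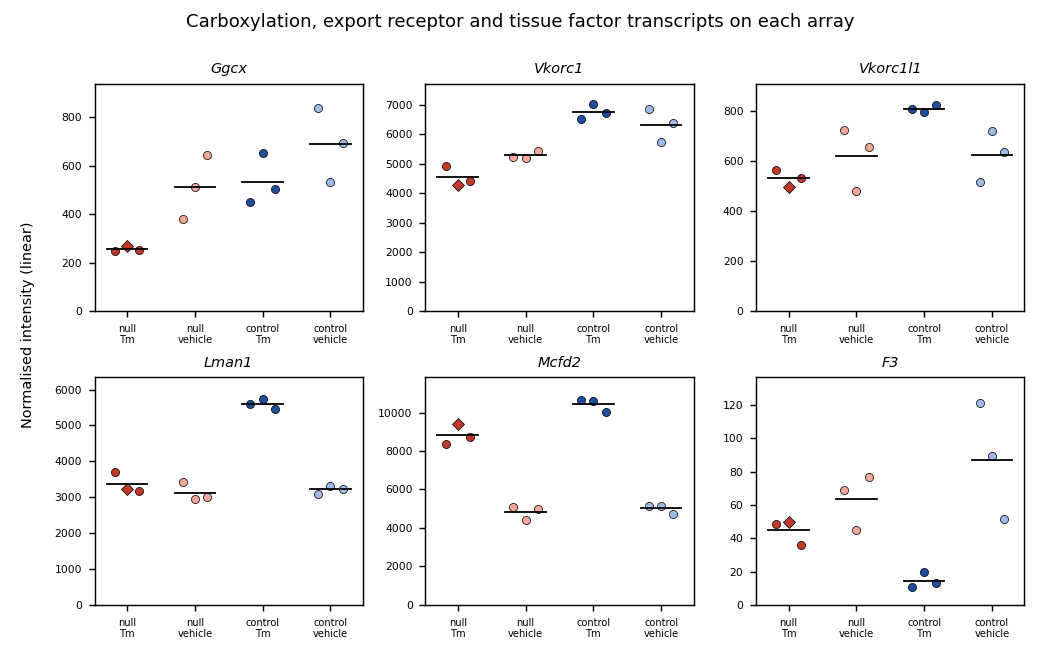
Normalised intensity (linear, vertical axis from 0) of Ggcx, Vkorc1, Vkorc1l1, Lman1, Mcfd2 and F3 on each array, for null tunicamycin, null vehicle, control tunicamycin and control vehicle livers, with bars for means of 3 arrays and a diamond for null tunicamycin replicate 2. Lman1 reads 5446 to 5728 in control tunicamycin livers and 2940 to 3714 in the other 9, and Ggcx reads 246 to 267 in null tunicamycin livers.

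Other secreted proteins of complement and clotting were also tested. Of 27, 1 rose and 2 fell in each genotype, with medians of -0.164 in null and -0.161 in control livers. The shares of all genes that rose and fell were 7.59% and 9.23% in null and 11.6% and 13.3% in control livers. In null livers without null tunicamycin replicate 2, 0 fell and C4bp and Vwf rose, with a median of -0.079. In that fit 1031 of 14568 genes rose and 1155 fell. Vwf, which carries factor VIII, is named after its values were seen (difference 0.91, adjusted p = 0.04136, against 0.6018 with all arrays). C4bp, an inhibitor of the classical convertase, rose by 0.52 ± 0.13 in null livers (adjusted p = 0.01718, and 0.02296 without null tunicamycin replicate 2) and by 0.44 ± 0.13 in control livers (adjusted p = 0.02596). C1s1, a protease of the C1 complex, fell by 0.56 ± 0.14 in null livers (adjusted p = 0.01873, and 0.05396 without null tunicamycin replicate 2) and by 0.80 ± 0.14 in control livers (adjusted p = 0.001347). The null call of C1s1 was also lost with centred medians (adjusted p = 0.139) or values as deposited (adjusted p = 0.243), and the control call held in both. Cfp, the gene for properdin, which stabilises the alternative convertase, fell in null livers by 0.89 ± 0.27 (adjusted p = 0.04289, and 0.1243 without that array). F3 encodes tissue factor, the receptor of factor VII. It read 48.7, 49.7 and 35.8 in null tunicamycin livers, against 69.2, 44.9 and 76.7 in null vehicle livers. It read 10.5, 19.7 and 13 in control tunicamycin livers, against 121, 89.4 and 51.4 in control vehicle livers. F3 fell by 1.72 ± 0.25 in control livers (adjusted p = 0.000378) and had a difference of -0.37 ± 0.25 in null livers (adjusted p = 0.3502, and 0.3378 without null tunicamycin replicate 2), and with tunicamycin it was higher in null than in control livers by 1.00 ± 0.25 (adjusted p = 0.04695, and 0.1075 without null tunicamycin replicate 2). The interaction was 1.34 ± 0.35 (adjusted p = 0.1488), and these dim signals are close to the 16 added before the log.

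Receptors for complement and clotting proteins fell in 4 of 16 cases in each genotype, and none rose. Of all genes tested, 9.23% fell in null and 13.3% in control livers, and 7.59% and 11.6% rose. In null livers 1 of 16, Lrp1, fell without null tunicamycin replicate 2, against 7.93% of all genes. Lrp1, which clears protease and inhibitor complexes from plasma, read 896, 764 and 1041 in null tunicamycin livers, against 2311, 3319 and 2628 in null vehicle livers. It read 573, 799 and 699 in control tunicamycin livers, against 2311, 2315 and 2914 in control vehicle livers. It fell by 1.59 ± 0.19 in null livers (adjusted p = 0.0001783, and 0.0006589 without null tunicamycin replicate 2) and by 1.84 ± 0.19 in control livers (adjusted p = 2.746e-05), a larger fall than that of any of the 34 transcripts. Cd59a, which blocks the pore on host cells, fell by 0.75 in null and 1.06 in control livers, and Asgr2, a subunit of the receptor that takes up desialylated glycoproteins, fell by 0.48 and 0.50. Without null tunicamycin replicate 2 the null calls of Cd59a (adjusted p = 0.08796) and Asgr2 (adjusted p = 0.1161) were lost. Asgr1, the other subunit, fell in control livers by 0.36 ± 0.12 (adjusted p = 0.0431), and C3ar1, a receptor for a fragment of C3, fell in null livers by 0.58 ± 0.16 (adjusted p = 0.02568, and 0.07679 without the array).

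Transcription factors that act on these genes fell in 2 of 7 cases in null and 3 of 7 in control livers, against 9.23% and 13.3% of all genes. Stat3, which drives the acute phase response, fell by 1.12 ± 0.17 in null livers (adjusted p = 0.00107, and 0.002735 without null tunicamycin replicate 2) and by 0.87 ± 0.17 in control livers (adjusted p = 0.003089). Foxa2, a liver forkhead factor, fell by 1.27 ± 0.32 in null livers (adjusted p = 0.01859, and 0.04051 without null tunicamycin replicate 2) and fell by 1.88 ± 0.32 in control livers (adjusted p = 0.001136). Cebpa fell by 1.44 ± 0.29 in control livers (adjusted p = 0.003245) and had a difference of -0.88 ± 0.29 in null livers (adjusted p = 0.05774, and 0.1666 without null tunicamycin replicate 2). Foxa2 was not called between genotypes with tunicamycin (adjusted p = 0.3603), but was higher in null livers without that array (adjusted p = 0.04486). Nr1h4, the gene for the bile acid receptor FXR, read 2947, 2592 and 2924 in null tunicamycin livers, against 1478, 1274 and 1919 in control tunicamycin livers, and was higher in null livers by 0.87 ± 0.15 (adjusted p = 0.007137, and 0.01137 without null tunicamycin replicate 2). With the vehicle it read 1974, 2138 and 2212 in null livers, against 1675, 1846 and 1806 in control livers. Those arrays did not overlap either, and the vehicle difference, 0.25, was not called (adjusted p = 0.988). Its interaction was 0.62 ± 0.22 (adjusted p = 0.3622).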

How the data were processed

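The authors deposited an intensity on a linear scale for each of 45101 Affymetrix probe sets on 12 arrays, and 64 control probe sets were left out of the tests. Per the labels, biotinylated cRNA was made from 6 µg of total RNA. How the probes were summarised or scaled is not stated in the labels, and the arrays' trimmed means of the deposited intensity differed. Of the rest, 34945 probe sets had 1 gene symbol in the platform annotation. Intensities were taken to log2(intensity + 16) and quantile normalised with limma 3.58.1 in R 4.3.3. The dimmest 30% of probe sets were dropped, and the brightest per gene was kept. The means of the 4 groups were fitted together with lmFit and eBayes, which left 8 residual degrees of freedom, and 5 contrasts were taken, with Benjamini-Hochberg adjustment over 14568 genes and a threshold of 0.05. The fit was tested on simulated data. Promoter sequences were those of RefSeq on build GRCm38.p6. Python 3.11.15 with matplotlib 3.10.9 made the plots.

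The 34 genes and the other gene lists were chosen with earlier results of these data known. Values on each array are given for the 14 called transcripts with the smallest adjusted p and for Fga, Fgb, Fgg, F2 and Serpinc1. Of each list of other genes up to 4 called genes with the smallest adjusted p in a contrast are named, and Vwf in addition. Alternatives were other pseudocounts, filters, normalisations, probe sets, fits and leaving out each array. Fits with the actin or the Gapdh 5' to 3' ratio as covariate were chosen after seeing the data. The replicate numbers were not used to pair arrays. N-glycosylation sites were planned and not analysed here, since no protein sequences were used.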

Additional observations from a re-analysis of the deposited data

How the results depend on the processing

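No call turned round under any of the 26 alternatives, and no transcript of the 34 was called higher under any. For single transcripts, 606 of the recomputed calls held and 120 were lost. The count that fell in control livers, 14, was 8 with centred array medians, 7 with values as deposited and 8 when the actin ratio entered the fit (median -0.465). It was 14 with the Gapdh ratio, 17 with array weights and 18 with a trended robust eBayes. Of all 14568 genes 1984, 2544 and 2031 fell in those fits, against 1943 in the main fit. The count of the 34 ran from 9 to 16 when an array was left out, and that of all genes from 1298 to 2230. The median difference in control livers was -0.248 with centred medians and -0.226 as deposited, and -0.437 to -0.333 when an array was left out. The count that fell in null livers, 14, was 5 with centred medians, 2 as deposited, and 10 with the actin and 12 with the Gapdh ratio. It was 8 with a fit of only the groups compared, 13 with array weights and 17 with a trended robust eBayes. Of all genes 771, 1618 and 1459 fell in those last fits, against 1344 in the main fit. The null count of the 34 ran from 8 to 13 when an array was left out, and that of all genes from 803 to 1319. The median in null livers was -0.296 as deposited, and -0.516 to -0.338 when an array was left out. The cause of these shifts was not tested. Over all genes 1105 rose and 1344 fell in null livers, which became 1256 and 703 with centred medians and 1477 and 512 as deposited. In control livers 1693 rose and 1943 fell, which became 2100 and 1181, and 2062 and 1068. With the replicate number as a block, 12 fell in null and 13 in control livers, with 1158 and 1787 over all genes. Arrays with the same number did not deviate together in most cases, since 5 of 18 pairs had a correlation over 0.1 (-0.41 to 0.49), so the block was not used. The highest values were between control tunicamycin and control vehicle arrays, at 0.490 for replicate 3 and 0.237 for replicate 1, with -0.068 for replicate 2. Between genotypes and in the interaction 0 of 34 were called under every alternative run, and the interaction could not be had from a fit of only the groups compared. Without _x_at and _s_at probe sets 33 transcripts were left, since Hrg dropped out. The planned count of N-glycosylation sites was not run. The 2 ratio covariates were chosen after seeing the data. The number of arrays, 3 a group, limits what small differences can show.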
